A study of Mus musculus with 2 samples.

Results

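Foetal Leydig cells are the androgen-producing cells of the foetal testis, and 9 genes of their steroidogenic programme were followed here in mouse gonadal somatic cells: *Lhcgr*, *Scarb1*, *Star*, *Cyp11a1*, *Hsd3b1*, *Cyp17a1*, *Fdx1*, *Fdxr* and *Insl3*. The genes were taken from a list by symbol and matched to 9 of the 42422 gene identifiers counted. Transcripts were counted by 3′ RNA-seq with molecular identifiers in 40 libraries, 4 in each of 10 groups, and each library held the sorted cells of several pooled gonads. Gonads came from E12.5 embryos of 129T2svJ males carrying the *Oct4*-eGFP transgene and Swiss females, and GFP-negative cells were sorted, so that every group shares this genotype and this depletion of germ cells.

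The 10 groups were XX and XY somatic cells before culture (0 h), XX and XY cells after 24 h and after 72 h of gonad culture with the vehicle DMSO, and XY cells after 24 h and after 72 h with 500 nM of the MEK1/2 inhibitor PD0325901 (MEKi) or 500 nM of the FGF receptor inhibitor BGJ398 (FGFRi). XX cells were not given an inhibitor in these libraries. The comparisons address how inhibition of MEK1/2 or FGF receptors after sex determination changes the somatic cells of the developing testis.

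Steroid synthesis starts with cholesterol, which cells can take up through the lipoprotein receptor encoded by *Scarb1* and which STAR moves to the inner mitochondrial membrane. There CYP11A1 cleaves the side chain to give pregnenolone, with electrons passed to it by ferredoxin reductase (*Fdxr*) and ferredoxin (*Fdx1*). HSD3B1 and CYP17A1 then convert pregnenolone towards androgens. In the mouse, foetal Leydig cells make androstenedione and depend on Sertoli cells for its last conversion to testosterone. *Lhcgr* encodes the receptor for luteinising hormone, and *Insl3* a hormone of Leydig cells that acts in testis descent. FDX1, FDXR and SCARB1 are used by many cell types, so these genes do not mark Leydig cells alone.

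In GRCm39 with the GENCODE annotation, all 9 are protein-coding genes. They lie at chr17:89023909-89099473 on the minus strand (*Lhcgr*, ENSMUSG00000024107.7), chr5:125353547-125418176 on the minus strand (*Scarb1*, ENSMUSG00000037936.15), chr8:26296583-26306010 on the plus strand (*Star*, ENSMUSG00000031574.8), chr9:57913694-57935933 on the plus strand (*Cyp11a1*, ENSMUSG00000032323.13), chr3:98757367-98767116 on the minus strand (*Hsd3b1*, ENSMUSG00000027871.16), chr19:46655604-46661611 on the minus strand (*Cyp17a1*, ENSMUSG00000003555.8), chr9:51852253-51875291 on the minus strand (*Fdx1*, ENSMUSG00000032051.9), chr11:115158844-115168006 on the minus strand (*Fdxr*, ENSMUSG00000018861.8) and chr8:72141858-72143225 on the plus strand (*Insl3*, ENSMUSG00000079019.2). *Cyp11a1*, *Scarb1* and *Insl3* overlap another annotated gene on their own strand (*Gm17322*, *Gm42633* and *Jak3*), so their counts carry that uncertainty.

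Total counts were between 1380707 and 4836550 per library. The sex chromosome genes followed the labels in the 3 comparisons of XY with XX cells, with 4 Y-linked genes higher and *Xist* lower in each. Adrenal cortex shares much of this pathway, so its enzymes *Cyp21a1* and *Cyp11b1*, which the testis does not need for androgens, were counted in every library. Their summed counts were 40 in XX 72 h DMSO replicate F7, 23 in XY 72 h DMSO replicate M5 and 15 in XY 72 h MEKi replicate M2, at most 9 in every other library and 0 in 25. F7 and M5 also had the highest *Cyp11a1* and *Star* of their groups, so the calls at 72 h are also given without these 3 libraries. In bulk samples, fewer Leydig cells and less RNA per Leydig cell cannot be told apart.

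The windows upstream of *Cyp11a1*, *Hsd3b1* and *Lhcgr* are shown because these genes were among those raised by MEKi at 72 h and the windows held no annotated exon. RefSeq's promoter table had entries for 6 of the 9 genes, in 7 windows, and none for *Star*, *Cyp17a1* and *Scarb1*. Each window runs from 250 to 51 bases before the start in the table, which uses GRCm38.p6, and was matched exactly to 1 place in GRCm39. Capitals mark TCAAGG or its reverse complement, and AGGTCA, the letters at the centre of sites for the steroidogenic regulator NR5A1. The *Hsd3b1* window is chr3:98767161-98767360 and the *Lhcgr* window chr17:89099493-89099692, both on the minus strand. *Cyp11a1* had 2 windows in the table, and the one without an exon, chr9:57905057-57905256 on the plus strand, held neither motif. It lies upstream of the GENCODE start at base 57913694 and is not the sequence next to that start. The other window, chr9:57921985-57922184, lies inside the annotated gene and also held neither motif.
Cyp11a1: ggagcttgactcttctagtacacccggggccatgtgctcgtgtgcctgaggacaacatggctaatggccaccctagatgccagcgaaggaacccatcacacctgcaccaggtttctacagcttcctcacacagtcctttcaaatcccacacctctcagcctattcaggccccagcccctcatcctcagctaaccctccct
Hsd3b1: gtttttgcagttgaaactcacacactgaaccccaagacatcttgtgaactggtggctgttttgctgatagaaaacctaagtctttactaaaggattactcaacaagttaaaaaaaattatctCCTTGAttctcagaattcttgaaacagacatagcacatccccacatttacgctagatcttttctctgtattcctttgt
Lhcgr: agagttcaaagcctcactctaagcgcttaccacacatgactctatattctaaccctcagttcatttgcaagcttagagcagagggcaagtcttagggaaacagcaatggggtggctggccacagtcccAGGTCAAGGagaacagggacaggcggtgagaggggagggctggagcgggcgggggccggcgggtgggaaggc
TCAAGG was found, on either strand, in the windows of *Hsd3b1*, *Lhcgr*, *Fdx1* and *Insl3*, which is 4 of 7 windows, against 10.2% of 32514 windows of the same length in the table. The *Fdx1* and *Insl3* windows lay in annotated exons over all 200 bases, and the share over all windows was not split by exon. AGGTCA was found in 1 of the 7, that of *Lhcgr*, where it overlaps TCAAGG, against 11.4% of all windows. The letters were chosen with the sequences in view, and a match is a description, not a binding site.

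The levels below are counts per 1000000 (CPM) of the TMM-adjusted library size, given as mean ± SD of 4 libraries. *Cyp11a1* was highest in XY 72 h MEKi cells, at 259 ± 53.5 CPM, followed by XY 24 h FGFRi (212 ± 63.4), XY 72 h FGFRi (194 ± 77.7), XY 24 h DMSO (143 ± 24.4), XY 24 h MEKi (127 ± 29.3) and XY 72 h DMSO (123 ± 35.0). Neighbours in this order overlapped. A gap with no overlap separated these cultured XY groups from XY 0 h (32.1 ± 6.33), XX 0 h (26.6 ± 6.88), XX 72 h DMSO (19.7 ± 15.6) and XX 24 h DMSO (12.4 ± 4.67), whose ranges again overlapped from one to the next. *Lhcgr* followed a like order, from 29.3 ± 6.73 CPM in XY 72 h MEKi and 29.2 ± 7.46 in XY 24 h FGFRi, through 20.4 ± 4.15 in XY 24 h DMSO, 18.97 ± 6.14 in XY 24 h MEKi, 16.2 ± 5.17 in XY 72 h FGFRi and 14.1 ± 4.52 in XY 72 h DMSO, to between 3.29 ± 2.73 and 7.40 ± 2.37 in uncultured and XX cells. Each group overlapped the next, so that no gap separated cultured XY cells here.

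*Hsd3b1* did not keep to the sexes. XY 72 h MEKi cells had 606 ± 138 CPM, XY 24 h FGFRi 477 ± 88.4, XX 72 h DMSO 450.4 ± 20.4, XY 24 h DMSO 439 ± 110, XY 72 h FGFRi 438 ± 109, XY 24 h MEKi 327 ± 42.1 and XY 72 h DMSO 275 ± 51.2, each overlapping the next. XX 24 h DMSO (81.7 ± 14.8) and XY 0 h (81.7 ± 25.2) lay below them without overlap, and XX 0 h (35.4 ± 10.4) was lowest, again without overlap. *Cyp17a1* was highest in XY 24 h DMSO, at 96.4 ± 18.3 CPM, then XY 24 h FGFRi (80.5 ± 24.4), XY 72 h MEKi (66.4 ± 28.5), XY 72 h FGFRi (50.8 ± 6.85), XY 24 h MEKi (48.7 ± 15.0), XY 0 h (44.3 ± 30.9) and XY 72 h DMSO (28.0 ± 4.83). The 3 XX groups lay below all of these libraries, at 15.5 ± 2.37 at 24 h, 13.4 ± 4.75 at 72 h and 7.60 ± 2.12 before culture.

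*Star*, *Fdx1*, *Fdxr* and *Scarb1* varied less across groups. *Star* ranged from 25.8 ± 4.91 CPM in XX 0 h to 58.7 ± 8.66 in XX 24 h DMSO, with the XY groups between 35.6 ± 10.3 and 55.4 ± 4.18. *Fdx1* was highest in XY 72 h MEKi (70.2 ± 11.4) and XY 24 h FGFRi (65.2 ± 9.66), and lay between 39.6 ± 8.57 and 51.7 ± 7.64 elsewhere. *Fdxr* was highest in XY 0 h (137 ± 21.7) and lowest in XX 72 h DMSO (60.9 ± 6.90). *Scarb1* was highest in XX 72 h DMSO (146 ± 21.5) and lowest in XX 0 h (47.0 ± 2.15), and all other groups had between 84.0 ± 8.91 and 127 ± 13.6.

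**Figure D1:**
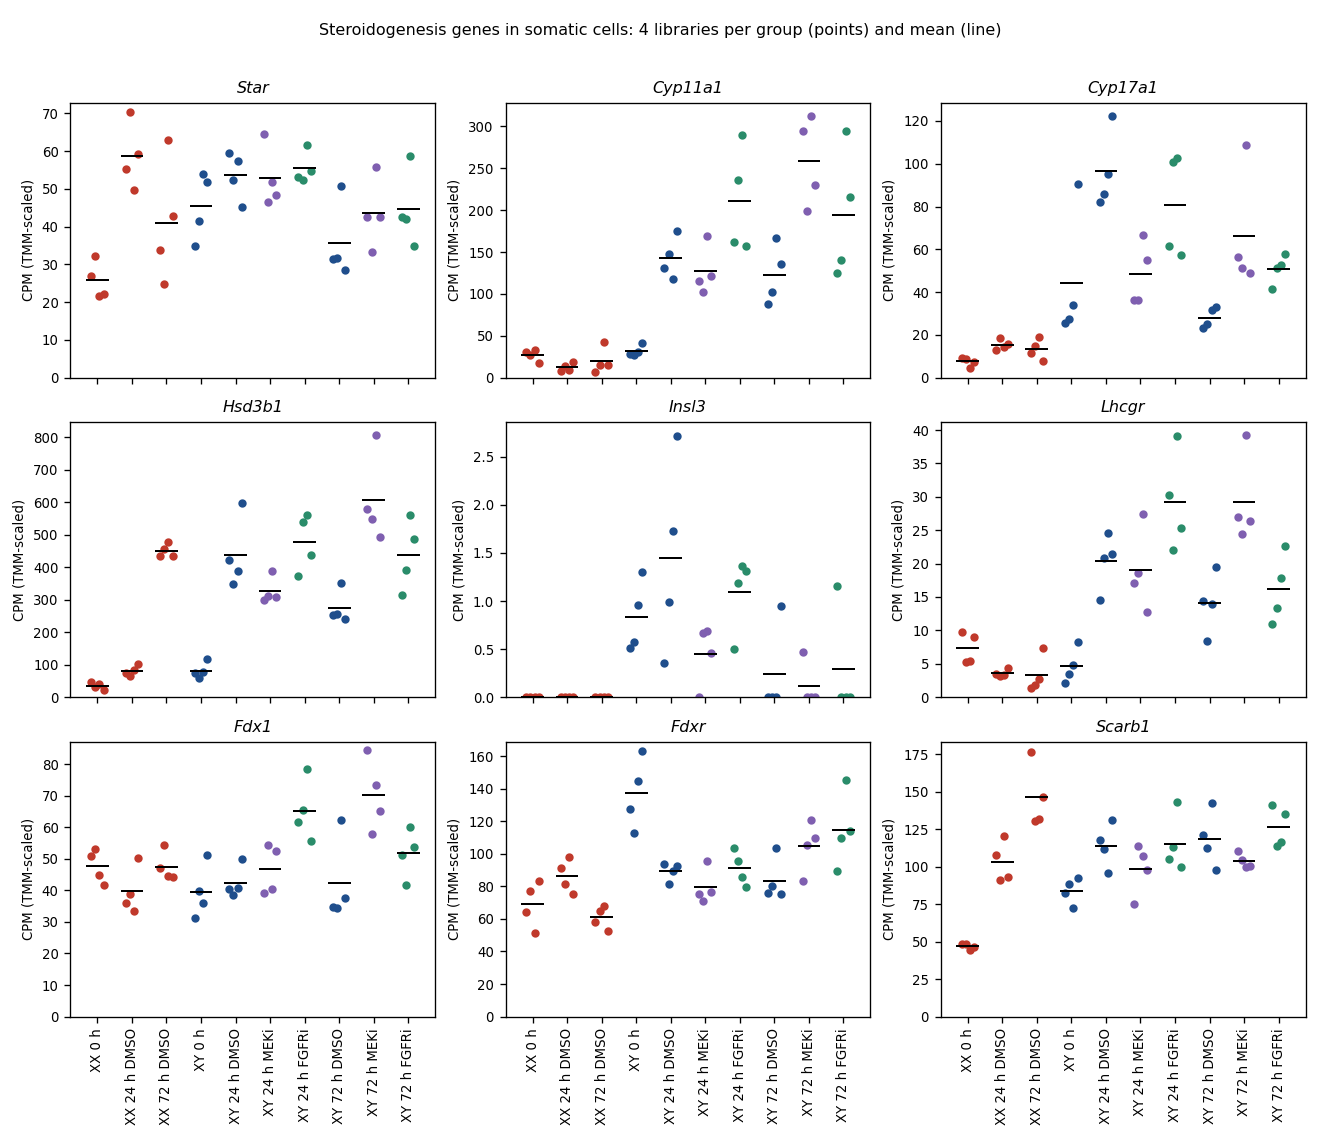
TMM-scaled CPM of each gene (vertical axes, starting at 0) in the 10 groups, with a point for each of 4 libraries and a line at the mean; red is XX, blue XY without inhibitor, purple MEKi and green FGFRi. *Cyp11a1* separates cultured XY cells from the rest, *Lhcgr* overlaps between XY 72 h DMSO and XX 0 h, *Hsd3b1* reaches 450.4 CPM in XX cells at 72 h, and *Insl3* stays below 3 CPM.

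Genes were called where the Benjamini-Hochberg adjusted p (FDR) of edgeR's quasi-likelihood test over 15125 genes was below 0.05 and the fold change at least 1.5. *Insl3* did not pass the filter on low counts, so 8 of the 9 genes were tested. In XY cells, the LH receptor gene and 3 enzyme genes were higher after 24 h of culture than before it. No uncultured gonads of the later age were among the groups, so culture and developmental age cannot be told apart. *Cyp11a1* was at 28.7, 27.3, 31.1 and 41.3 CPM before culture and at 131, 147, 118 and 175 CPM after 24 h in DMSO. The log2 fold change was 2.13 (SE 0.27, edgeR FDR 2.46e-08). *Hsd3b1* rose by 2.41 (SE 0.19, edgeR FDR 6.48e-15) and *Lhcgr* by 2.10 (SE 0.33, edgeR FDR 1.78e-06), both without overlap between the groups. *Cyp17a1* rose by 1.09 (SE 0.25, edgeR FDR 0.000726). XY 0 h replicate M6 was at 90.4 CPM of *Cyp17a1*, against 25.6, 27.3 and 33.9 in the other 3 libraries, and leaving M6 out gave a log2 fold change of 1.73. *Fdxr* fell by 0.62 (SE 0.13, edgeR FDR 0.000373), and was no longer called without XY 0 h replicate M6 (−0.53) or XY 24 h DMSO replicate M3 (−0.58), where the fold was under 1.5. These 5 of 8 genes stand against 14.4% of all genes called in this comparison. *Scarb1* (0.43, edgeR FDR 0.00963) changed by less than 1.5-fold, and *Star* (0.23, edgeR FDR 0.403) and *Fdx1* (0.08, edgeR FDR 0.770) were not called.

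In XX cells over the same 24 h, 3 genes rose and 1 fell. *Star* rose by 1.18 on the log2 scale (SE 0.20, edgeR FDR 1.59e-05), *Scarb1* by 1.12 (SE 0.14, edgeR FDR 1.33e-08) and *Hsd3b1* by 1.22 (SE 0.21, edgeR FDR 3.06e-05), each without overlap. *Cyp11a1* was at 30.3, 26.5, 32.5 and 17.0 CPM before culture and at 8.06, 14.1, 9.19 and 18.2 CPM after it. The ranges overlapped between 17.0 and 18.2 CPM, and the log2 fold change of −1.04 (SE 0.36, edgeR FDR 0.0465) lost its call without any 1 of 6 of the 8 libraries (F2, F3 or F4 at 0 h, F4, F5 or F6 at 24 h; edgeR FDR between 0.0675 and 0.136). *Lhcgr* was lower by a similar amount (−1.08, edgeR FDR 0.0535) and not called. In all, 4 of 8 genes were called, against 7.73% of all genes.

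The genes that differed between the sexes were not the same before and after culture. Before culture, XY cells had higher *Cyp17a1* (log2 fold change 2.51, SE 0.34, edgeR FDR 4.20e-08), *Hsd3b1* (1.24, edgeR FDR 8.93e-06), *Fdxr* (0.97, edgeR FDR 1.96e-07), *Scarb1* (0.83, edgeR FDR 5.06e-06) and *Star* (0.81, edgeR FDR 0.00217), 5 of 8 against 17.3% of all genes called in either direction and 9.32% called higher. *Cyp11a1* (0.32, edgeR FDR 0.541) and *Lhcgr* (−0.67, edgeR FDR 0.227) were not called. Without XY 0 h replicate M6 the value for *Cyp17a1* was 1.86. After 24 h in DMSO the 4 higher genes were *Cyp11a1* (3.5, SE 0.30, edgeR FDR 3.29e-14), *Cyp17a1* (2.61, SE 0.27, edgeR FDR 1.74e-11), *Lhcgr* (2.50, SE 0.32, edgeR FDR 7.43e-09) and *Hsd3b1* (2.43, SE 0.18, edgeR FDR 3.96e-16), against 19.6% of all genes called in either direction and 10.3% called higher. The change of the sex difference from 0 h to 24 h was itself tested as an interaction and was called for 6 of 8 genes, against 6.2% of all genes. It was positive for *Cyp11a1* (3.18, edgeR FDR 1.13e-06), *Lhcgr* (3.17, edgeR FDR 1.12e-05) and *Hsd3b1* (1.19, edgeR FDR 0.00395), and negative for *Star* (−0.95, edgeR FDR 0.0216), *Fdxr* (−0.92, edgeR FDR 0.000989) and *Scarb1* (−0.69, edgeR FDR 0.0149). *Star* lost this call without XX 0 h replicate F5, XX 24 h replicate F5, XY 0 h replicate M5 or XY 0 h replicate M6 (edgeR FDR between 0.0550 and 0.0643), and *Scarb1* without XY 24 h replicate M4 (edgeR FDR 0.0609).

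After 72 h in DMSO, 3 genes were higher in XY cells and 1 was lower, against 20.3% of all genes called. *Hsd3b1* was at 434, 456, 477 and 435 CPM in XX cells and at 253, 255, 351 and 241 CPM in XY cells. Every XX library was above every XY library, with a log2 fold change of XY over XX of −0.72 (SE 0.17, edgeR FDR 0.000881). With the replicate number as a block the edgeR FDR was 0.0717. *Cyp11a1* remained higher in XY cells, by 2.50 on the log2 scale (SE 0.29, edgeR FDR 5.70e-10). Its XX libraries were at 6.58, 15.4, 42.3 and 14.6 CPM, the highest being F7, and without F7 the difference was 3.35. *Lhcgr* was higher in XY cells by 2.12 (SE 0.37, edgeR FDR 7.97e-06), and by 2.74 without XX replicate F8. *Cyp17a1* was higher by 1.00 (SE 0.32, edgeR FDR 0.0144), but was not called without XX replicate F8 (0.83, edgeR FDR 0.0601) or with the replicate block (1.03, edgeR FDR 0.159). Without the 3 libraries with adrenal counts the same 4 genes were called, with *Hsd3b1* at −0.82, *Cyp11a1* at 3.17, *Lhcgr* at 2.00 and *Cyp17a1* at 1.23.

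From 24 h to 72 h the change of the sex difference was called for 2 of 8 genes, against 2.04% of all genes called in either direction and 1.17% called lower. *Hsd3b1* moved by −3.14 (SE 0.25, edgeR FDR 3.65e-13), with a mean that went from 81.7 to 450.4 CPM in XX cells and from 439 to 275 CPM in XY cells. *Cyp17a1* moved by −1.61 (SE 0.43, edgeR FDR 0.0273), and lost its call with the replicate block (edgeR FDR 0.179), without the 3 libraries with adrenal counts (−1.39, edgeR FDR 0.198) and without XX 24 h replicate F4, XY 24 h replicate M5, XX 72 h replicate F7 or XY 72 h replicate M2 (edgeR FDR between 0.0617 and 0.194). *Hsd3b6*, a near relative of *Hsd3b1*, went the other way in culture, from 45.6 ± 10.6 CPM in XX 0 h and 107 ± 21.4 CPM in XY 0 h to 0.471 ± 0.661 and 7.23 ± 9.47 CPM after 24 h in DMSO. The last 400 bases of the longest protein-coding transcripts of *Hsd3b1* (5453 bases) and *Hsd3b6* (1808 bases) were 59.6% identical, with no identical run above 10 bases. Because the lengths differ, these ends need not be corresponding stretches, and the positions of the reads were not examined. Over the whole transcripts the identity was 88.7% of 1808 aligned bases, with an identical run of 72 bases, so reads could be shared by both genes.

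**Figure D2:**
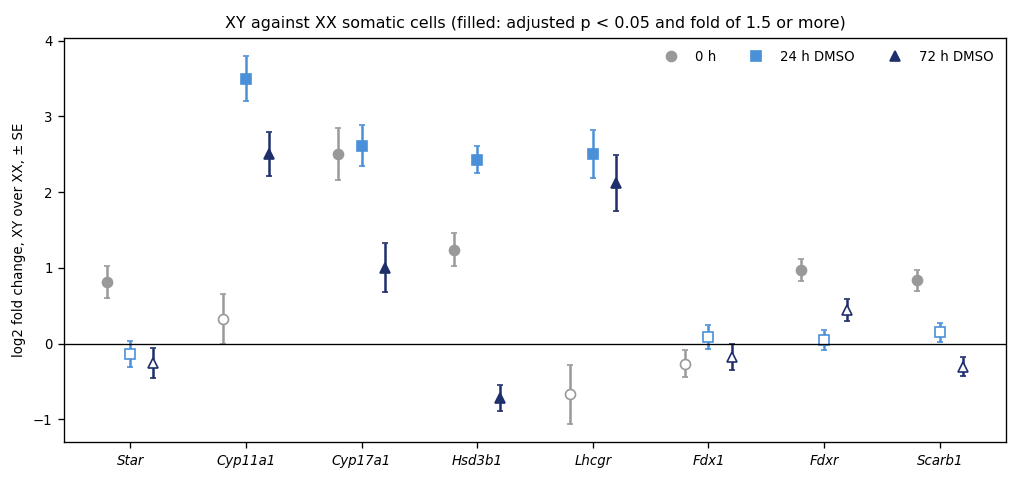
Log2 fold change of XY over XX somatic cells (vertical axis) for the 8 genes tested, at 0 h, 24 h and 72 h, with bars of 1 SE; filled points passed FDR < 0.05 and a fold of 1.5. *Cyp11a1* and *Lhcgr* were called at 24 h and 72 h and not at 0 h, and *Hsd3b1* runs from 1.24 at 0 h and 2.43 at 24 h to −0.72 at 72 h.

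Between 24 h and 72 h in DMSO, XY cells lost *Cyp17a1*, from 82.0, 85.8, 95.2 and 122 CPM to 23.0, 24.9, 31.4 and 32.8 CPM, with no overlap and a log2 fold change of −1.79 (SE 0.26, edgeR FDR 1.15e-06). *Hsd3b1* fell by 0.67 (SE 0.17, edgeR FDR 0.00464) and *Star* by 0.60 (SE 0.19, edgeR FDR 0.0283), which makes 3 of 8 genes against 7.27% of all genes called in either direction and 3.03% called lower. *Hsd3b1* was not called without XY 24 h replicate M5 (edgeR FDR 0.0621), nor *Star* without XY 24 h replicate M2 or M4 or XY 72 h replicate M2, M4 or M6 (edgeR FDR between 0.0740 and 0.107). Without the 3 libraries with adrenal counts the same 3 genes were called, at −1.85, −0.81 and −0.81. The 24 h DMSO libraries belong to library set 3 of the study and the 72 h libraries to set 4, so time and set cannot be told apart here. The interaction tests compare differences formed within each set.

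At 24 h, MEKi lowered 1 of the 8 genes, *Cyp17a1*, against 3.27% of all genes called in either direction and 1.98% called lower. Its libraries were at 36.2, 36.5, 66.8 and 55.2 CPM with MEKi and at 82.0, 85.8, 95.2 and 122 CPM with DMSO. The groups did not overlap, and the log2 fold change was −0.95 (SE 0.24, edgeR FDR 0.0114). The call was lost without XY 24 h DMSO replicate M5, MEKi replicate M1 or MEKi replicate M2 (edgeR FDR 0.0520, 0.0730 and 0.0634), the last being the library whose group was taken from the deposited barcode list, while the value stayed between −0.82 and −1.16 in every alternative. *Hsd3b1* had 298, 310, 389 and 310 CPM with MEKi and 421, 348, 389 and 596 CPM with DMSO (log2 fold change −0.42, edgeR FDR 0.175). *Cyp11a1* (−0.15, SE 0.24, edgeR FDR 0.839), *Lhcgr* (−0.09, SE 0.26, edgeR FDR 0.920), *Star* (−0.02, SE 0.18, edgeR FDR 0.975), *Fdx1* (0.13), *Fdxr* (−0.15) and *Scarb1* (−0.21) were not called either. The median over the 8 genes was −0.15, against −0.01 over all genes tested.

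At 72 h, MEKi raised 5 of the 8 genes, against 6.47% of all genes called in either direction and 2.29% called higher. *Cyp11a1*, the enzyme of the first step, was at 295, 199, 313 and 230 CPM with MEKi and at 88.0, 103, 167 and 135 CPM with DMSO. All MEKi libraries were above all DMSO libraries, and the log2 fold change was 1.08 (SE 0.24, edgeR FDR 0.00145). *Hsd3b1* was at 578, 548, 807 and 494 CPM with MEKi against 253, 255, 351 and 241 CPM, again without overlap (1.15, SE 0.17, edgeR FDR 3.34e-06). *Cyp17a1* was at 56.4, 51.2, 109 and 49.1 CPM against 23.0, 24.9, 31.4 and 32.8 CPM, without overlap (1.28, SE 0.27, edgeR FDR 0.000868). MEKi replicate M4 stood above the other 3 libraries in *Cyp17a1* and *Hsd3b1*, and without it the values were 0.90 (edgeR FDR 0.0293) and 0.97 (edgeR FDR 0.000147), both still called.

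The LH receptor gene *Lhcgr* had 27.0, 24.5, 39.2 and 26.4 CPM with MEKi and 14.3, 8.45, 13.96 and 19.5 CPM with DMSO. The groups did not overlap (1.06, SE 0.27, edgeR FDR 0.00642), but the call was lost without MEKi replicate M4 (0.87, edgeR FDR 0.0559). The ferredoxin gene *Fdx1* had 84.4, 57.7, 73.5 and 65.2 CPM with MEKi and 34.7, 34.3, 62.3 and 37.6 CPM with DMSO (0.74, SE 0.16, edgeR FDR 0.00156), with 1 DMSO library, M5, inside the range of the MEKi libraries. *Fdxr*, the ferredoxin reductase gene, moved by 0.33 (SE 0.14, edgeR FDR 0.110), *Star* by 0.31 (SE 0.20, edgeR FDR 0.325) and *Scarb1* by −0.19 (SE 0.13, edgeR FDR 0.350), and none of these 3 was called. The median over the 8 genes was 0.90, against 0.00 over all genes tested. DMSO replicate M5 and MEKi replicate M2 are 2 of the 3 libraries with adrenal counts, and without the 3 libraries the same 5 genes were called, at 1.2 for *Cyp11a1*, 1.31 for *Hsd3b1*, 1.41 for *Cyp17a1*, 1.10 for *Lhcgr* and 0.89 for *Fdx1*. A test of whether the fold exceeds 1.5, rather than differs from 1, called 1 of the 8 genes with edgeR's glmTreat (*Hsd3b1*) and 0 with voom and treat, where *Hsd3b1* had an adjusted p of 0.0597. The latter, voom with quality weights and then treat, is the method that the paper describes for its germ cell libraries.

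**Figure D3:**
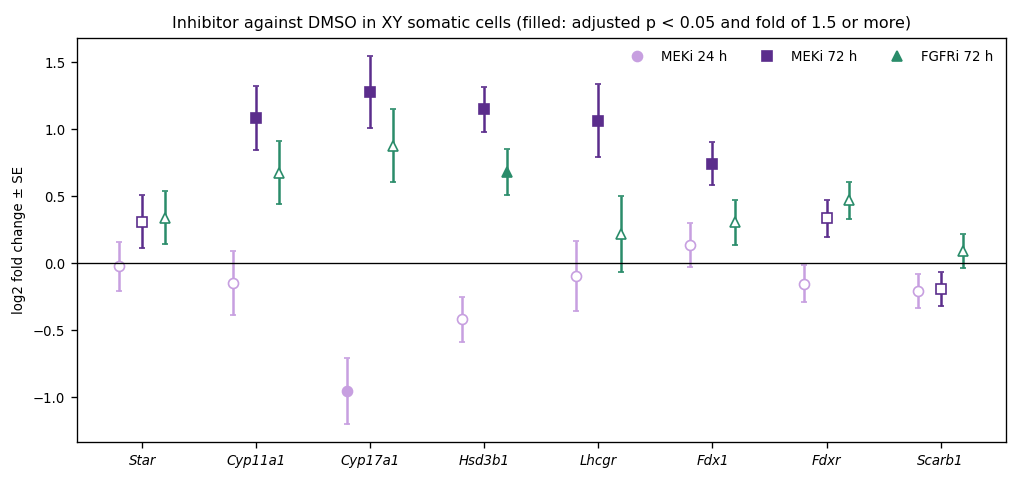
Log2 fold change of inhibitor over DMSO in XY somatic cells (vertical axis) for the 8 genes tested, with bars of 1 SE; filled points passed FDR < 0.05 and a fold of 1.5. The MEKi values at 72 h lie above 0.7 for 5 genes, and the MEKi values at 24 h lie between −0.95 and 0.13.

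The time difference of the MEKi effect, the log2 fold change at 72 h minus that at 24 h, was tested as an interaction and was called for 3 of 8 genes, all higher, against 1.41% of all genes called in either direction and 0.555% called higher. It was 2.23 for *Cyp17a1* (SE 0.36, edgeR FDR 0.000249), which MEKi lowered at 24 h and raised at 72 h. It was 1.56 for *Hsd3b1* (SE 0.24, edgeR FDR 0.000151) and 1.23 for *Cyp11a1* (SE 0.33, edgeR FDR 0.0426). The call for *Cyp11a1* was the least stable of the 3. It was lost with DESeq2 (adjusted p 0.171), with edgeR's glmTreat against a fold of 1.5, and when only the libraries of 24 h and 72 h were fitted (edgeR FDR 0.0629). The call was also lost without any 1 of 8 of the 16 libraries: M5 of 24 h DMSO, M1, M2 and M6 of 24 h MEKi, M2 and M4 of 72 h DMSO, and M2 and M4 of 72 h MEKi (edgeR FDR between 0.0792 and 0.115). *Cyp17a1* and *Hsd3b1* kept their calls without each of the 16 libraries in turn, but voom and treat, which tests against a fold of 1.5, called none of the 8 genes, with an adjusted p of 0.0967 for both. Without the 3 libraries with adrenal counts the same 3 genes were called, at 2.36 for *Cyp17a1*, 1.73 for *Hsd3b1* and 1.35 for *Cyp11a1*. *Lhcgr* (1.16, edgeR FDR 0.112), *Fdx1* (0.61, edgeR FDR 0.198), *Fdxr* (0.49, edgeR FDR 0.229), *Star* (0.33, edgeR FDR 0.636) and *Scarb1* (0.02, edgeR FDR 0.982) were not called. The rise of *Lhcgr* and *Fdx1* with MEKi at 72 h is therefore not shown to differ from their values at 24 h. The comparisons at 24 h and 72 h share no libraries.

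**Figure D4:**
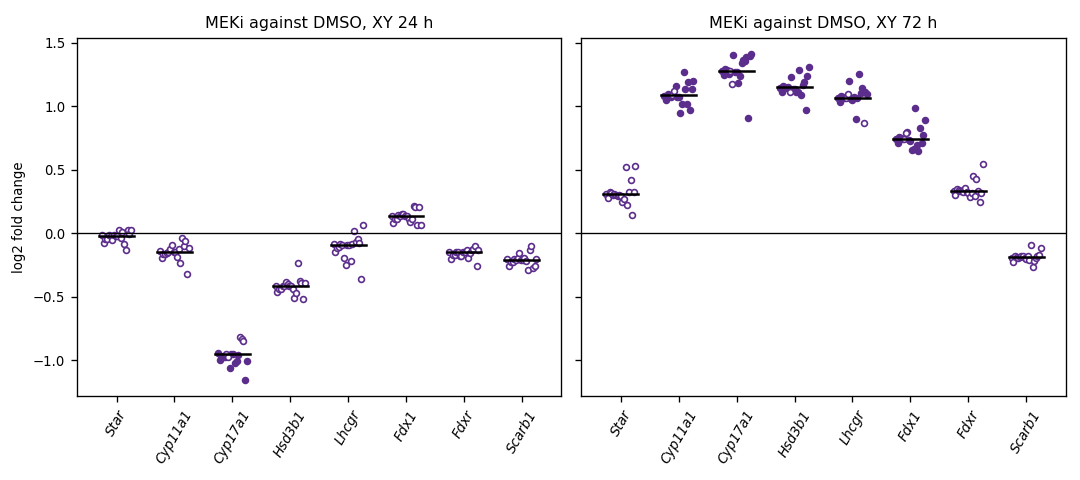
Log2 fold change of MEKi over DMSO in XY somatic cells at 24 h (left) and 72 h (right) for the 8 genes tested, with a line at the reported value and a point for each alternative processing or left-out library; filled points were called. At 72 h, *Hsd3b1* lies between 0.97 and 1.31 and *Cyp17a1* between 0.90 and 1.41, and no alternative turns the sign of a called value.

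Set against uncultured XY cells rather than DMSO, XY cells after 24 h with MEKi had higher *Hsd3b1* (1.99, edgeR FDR 3.61e-12), *Lhcgr* (2.00, edgeR FDR 7.95e-06) and *Cyp11a1* (1.99, edgeR FDR 1.75e-07) and lower *Fdxr* (−0.78, edgeR FDR 2.19e-05), 4 of 8 genes against 14.4% of all genes. *Cyp17a1* was at 48.7 ± 15.0 CPM with MEKi and 44.3 ± 30.9 CPM before culture, and was not called (0.14, SE 0.26, edgeR FDR 0.771).

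FGFRi called 1 of 8 genes at 72 h, *Hsd3b1*, against 1.8% of all genes called in either direction and 0.866% called higher. It was at 313, 390, 561 and 488 CPM with FGFRi, overlapping the 253, 255, 351 and 241 CPM with DMSO (0.68, SE 0.17, edgeR FDR 0.0182), and the call was lost without DMSO replicate M2, M4 or M6 or FGFRi replicate M5 or M6 (edgeR FDR between 0.0542 and 0.186) and with DESeq2. *Cyp17a1* had 41.5, 51.04, 52.6 and 57.9 CPM with FGFRi, above every DMSO library, but did not pass the threshold (0.88, SE 0.27, edgeR FDR 0.0710). *Cyp11a1* (0.68, edgeR FDR 0.125) and *Fdxr* (0.47, edgeR FDR 0.0545) were not called. Without the 3 libraries with adrenal counts, *Cyp11a1* was called with FGFRi (0.85, edgeR FDR 0.0244) as well as *Hsd3b1*.

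The MEKi and FGFRi comparisons at 72 h share their DMSO libraries, so the inhibitors were also compared directly. *Lhcgr* was higher with MEKi than with FGFRi (0.85, SE 0.26, edgeR FDR 0.0304), 1 of 8 genes against 6.43% of all genes called in either direction and 1.74% called higher, and the call was lost without FGFRi replicate M2, M4 or M5 or MEKi replicate M4 (edgeR FDR between 0.0645 and 0.165). Without the 3 libraries with adrenal counts *Lhcgr* was called at 0.88 (edgeR FDR 0.0475). The other 7 genes were not called, with *Hsd3b1* at 0.47 (edgeR FDR 0.0646), *Fdx1* at 0.44 (edgeR FDR 0.0715), *Cyp11a1* at 0.41 (edgeR FDR 0.279) and *Cyp17a1* at 0.40 (edgeR FDR 0.338). These tests do not show that the inhibitors act alike on these genes: the SEs of these 4 differences were between 0.16 and 0.25.

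At 24 h, FGFRi and DMSO libraries belong to different library sets and cannot be told apart from them. *Fdx1* was at 61.6, 65.5, 78.4 and 55.5 CPM with FGFRi and at 40.3, 38.5, 40.8 and 49.8 CPM with DMSO (0.63, SE 0.16, edgeR FDR 0.0102), 1 of 8 genes against 3.27% of all genes called in either direction and 1.69% called higher, and was not called without FGFRi replicate M4 (edgeR FDR 0.0821) or with total counts in place of TMM. From 24 h to 72 h with FGFRi, both in set 4, *Lhcgr* fell by 0.84 (SE 0.27, edgeR FDR 0.0382), 1 of 8 genes against 6.7% of all genes called in either direction and 2.33% called lower. The call was lost without FGFRi 24 h replicate M1 or M4 or FGFRi 72 h replicate M2, M4 or M5 (edgeR FDR between 0.0632 and 0.201). Without the 3 libraries with adrenal counts, none of which is in these groups, the edgeR FDR was 0.0460.

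*Insl3* was close to the limit of detection. It had 46 counts in all 40 libraries, 0 in the 12 XX libraries and at most 9 in any library, and 18 of the 28 XY libraries had a count. The 29220594 total counts of the XX libraries allow up to 0.103 counts per 1000000 where the count is 0. XY cells had counts of 1, 1, 2 and 3 before culture and of 1, 4, 9 and 7 after 24 h in DMSO. Per 1000000 total counts these are 0.818 (exact Poisson 95% interval 0.329 to 1.69) and 1.5 (0.927 to 2.29). In the XX libraries of the same time, 3 counts would be 0.342 and 0.263 per 1000000. The XY values are 2.39-fold and 5.69-fold of these levels, which leaves out the counting error of the XY counts. At 0 h the XY interval reaches below the XX level, so no fold difference is bounded there. At 24 h the XY interval lies above the XX level. At 24 h the counts were 0, 1, 2 and 1 with MEKi, or 0.461 per 1000000 (0.126 to 1.18), and 1, 2, 3 and 3 with FGFRi, or 1.10 per 1000000 (0.504 to 2.09). At 72 h the 4 libraries of a group summed to 2 counts with DMSO, 2 with FGFRi and 1 with MEKi, too few to compare. The intervals cover counting error only. Without the filter on low counts, *Insl3* was called between the sexes at 24 h (edgeR FDR 0.00726) and in no other comparison. *Insl3* lies within the span of *Jak3* on the same strand, and how reads shared by both genes were counted was not tested.

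The other genes of the pathway are given from lists, to be read against the 3.27% of all genes called with MEKi at 24 h and 6.47% at 72 h, at which a list of this size holds few calls or none. In the list of sterol uptake and mitochondrial delivery, 0 of 14 genes tested were called at 24 h and 0 at 72 h by edgeR's quasi-likelihood test, with 4 at an unadjusted p below 0.05 each time. In the list of redox partners and other steroid enzymes, 0 of 11 were called at either time, with 4 and 3 at an unadjusted p below 0.05. The list of LH receptor and cAMP signalling genes had 0 of 15 called at both times, with 4 and 3 at an unadjusted p below 0.05. The median log2 fold changes of these lists at 72 h were 0.12, 0.32 and −0.10. Of 14 regulators 0 were called at 24 h (3 at an unadjusted p below 0.05). At 72 h *Nr0b1*, which encodes a repressor of NR5A1 activity, was higher (0.92, edgeR FDR 0.0048). *Nr5a1* itself was at 127 ± 14.2 CPM with DMSO and 151 ± 11.2 CPM with MEKi at 72 h (0.25, edgeR FDR 0.0987). Of 12 interstitial progenitor genes 0 were called at 24 h (2 at an unadjusted p below 0.05). At 72 h the Notch ligand gene *Jag1* (−1.0, edgeR FDR 0.000496) and the Hedgehog receptor gene *Ptch1* (−0.69, edgeR FDR 0.00162) were lower.

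Of 9 genes known to respond to ERK, 7 were lower with MEKi at 24 h, against 1.98% of all genes called lower, and 8 at 72 h, against 6.47% called in either direction. At 24 h the values ran from −2.01 for the transcription factor gene *Etv4* (edgeR FDR 0.00166) and −1.86 for the ERK phosphatase gene *Dusp6* (edgeR FDR 1.15e-08) to −0.85 for *Phlda1* (edgeR FDR 0.000402) and −0.77 for *Spred1* (edgeR FDR 0.000934). At 72 h they ran from −3.33 for the feedback inhibitor gene *Spry4* (edgeR FDR 4.85e-09) and −2.19 for *Etv4* (edgeR FDR 0.00308) to −0.69 for *Phlda1* (edgeR FDR 0.00276) and −0.63 for *Egr1* (edgeR FDR 0.00146). With FGFRi 1 of the 9, *Spred1*, was lower at each time, against 3.27% of all genes called in either direction at 24 h and 1.8% at 72 h. At 24 h FGFRi and library set cannot be told apart.

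Between the sexes at 72 h, the other steroid enzymes went in both directions, with 4 of 11 higher and 2 lower in XY cells. The share of all genes called here was 20.3%, and the counts for the sterol list and the LH receptor and cAMP list lie near it. *Hsd3b6* (4.05, edgeR FDR 0.0499) and *Hsd17b3*, the enzyme that Sertoli cells use to make testosterone (3.95, edgeR FDR 2.74e-10), were the most raised, and the steroid reductase gene *Akr1c14* (−4.44, edgeR FDR 3.82e-08) and *Cyb5a* (−0.80, edgeR FDR 5.91e-08) were lower. The call of *Hsd3b6* lay just under the threshold, and whether it rests on single libraries was not tested. In the sterol list 3 of 14 genes were lower in XY cells: *Soat1*, which esterifies cholesterol (−2.16, edgeR FDR 1.23e-20), *Tspo* (−1.12, edgeR FDR 4.88e-07) and *Dbi* (−0.64, edgeR FDR 1.80e-05). Of 15 LH receptor and cAMP signalling genes 3 were higher, led by the adenylate cyclase gene *Adcy7* (3.18, edgeR FDR 1.28e-14), and *Prkar2b* was lower (−0.98, edgeR FDR 1.47e-05). Of 14 regulators 4 were higher, from *Tcf21* (1.59, edgeR FDR 4.07e-13) to *Nr4a1* (0.59, edgeR FDR 0.0164), and 3 were lower, led by *Nr0b1* (−1.48, edgeR FDR 3.08e-07). Of 12 interstitial progenitor genes 9 were higher in XY cells, led by the Hedgehog pathway genes *Ptch1* (2.45, edgeR FDR 4.21e-17) and *Gli1* (2.33, edgeR FDR 1.35e-14), and *Hes1* was lower (−0.80, edgeR FDR 1.06e-05).

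Markers of other cell types moved with MEKi beside these genes, and their part in the results was not tested. Of all genes, 3.27% were called with MEKi at 24 h and 6.47% at 72 h, in either direction. At 72 h, 4 of 6 endothelial markers were lower, with summed levels of 43.7 to 63.5 CPM with MEKi and 69.0 to 119 CPM with DMSO, and 4 of 5 macrophage markers were lower, at 11.9 to 19.4 against 29.0 to 85.0 CPM. Of 5 Sertoli markers *Amh* and *Sox9* were lower, with sums of 464 to 635 against 594 to 882 CPM, and 0 of 5 pre-granulosa markers were called (4 at an unadjusted p below 0.05). Germ cell, erythroid and mesonephros markers had 0 genes called at 72 h, with 0, 1 and 1 at an unadjusted p below 0.05. At 24 h, all 6 endothelial markers were lower with MEKi (49.2 to 66.4 against 173 to 233 CPM) and 3 of 4 germ cell markers tested were higher (227 to 424 against 94.7 to 139 CPM). Beside the lower *Cyp17a1* at 24 h, the summed adrenal genes were at 6.38 to 10.3 CPM with MEKi and 14.3 to 20.2 CPM with DMSO. Within these sums, *Cyp21a1* and *Cyp11b1* together had 5, 0, 0 and 0 counts with MEKi and 0, 1, 1 and 1 with DMSO. The difference therefore lay in the other genes of this list. In the XY 0 h libraries these other genes summed to between 19 and 36 counts, where *Cyp21a1* and *Cyp11b1* had 0. Whether they reflect adrenal cells was not tested. The summed macrophage markers were at 6.64 to 12.7 against 17.1 to 40.3 CPM. Neither sum overlapped between the groups, although 0 of 3 adrenal and 0 of 5 macrophage genes tested were called by edgeR's quasi-likelihood test (2 and 4 at an unadjusted p below 0.05). The sums of the mesonephros markers were 35.6 to 47.4 CPM with MEKi and 23.4 to 35.4 CPM with DMSO, with 0 of 3 called (1 at an unadjusted p below 0.05), and *Irx3* of 5 pre-granulosa markers was higher. Of 5 genes counted in the adrenal list, 3 could be tested. *Mrap*, which brings the ACTH receptor to the cell surface, was higher at 72 h (1.16, edgeR FDR 0.0121). The summed levels of the list were 12.4 to 27.0 CPM with MEKi and 7.33 to 38.9 CPM with DMSO. In MEKi replicates M2, M3, M4 and M5 *Mrap* had 27, 30, 57 and 21 counts, beside 15, 0, 3 and 1 of *Cyp21a1* and *Cyp11b1* together.

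With FGFRi at 72 h, beside the call of *Hsd3b1*, 4 of 5 macrophage markers were lower, with sums of 7.49 to 16.2 CPM against 29.0 to 85.0 CPM with DMSO and no overlap. Of 5 pre-granulosa markers *Rspo1* was higher and *Wnt4* lower, and 0 markers of the Sertoli, endothelial, germ cell, erythroid, mesonephros and adrenal lists were called by edgeR's quasi-likelihood test, with 3, 2, 1, 1, 1 and 1 at an unadjusted p below 0.05. At 24 h, where FGFRi and library set cannot be told apart, 2 of 4 germ cell markers were lower (20.8 to 54.7 against 94.7 to 139 CPM), *Emcn* and *Epcam* were lower, and *Aard* and *Rspo1* were higher. Of all genes, 3.27% were called with FGFRi at 24 h and 1.8% at 72 h, in either direction. The part of these markers in the results was not tested.

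The members did not move as one unit. Over the 10 group means of log2 CPM, *Cyp11a1* was most like *Lhcgr* (Pearson r = 0.96) and then *Cyp17a1* (0.83), and *Hsd3b1* most like *Scarb1* (0.82), while *Star* and *Fdx1* had r = 0.03. Over the deviations of the 40 libraries from their group means, the 28 pairs of the 8 genes had a median r of 0.32, from −0.11 for *Star* and *Scarb1* to 0.60 for *Cyp11a1* and *Hsd3b1*. These correlations are descriptions over shared libraries. Among genes outside the list, the 10 whose group means were most like those of *Cyp11a1* were *D430041D05Rik*, *Spink2*, *Hoxd10*, *Stk32a*, *Dleu7*, *Slc25a48*, *Rassf5*, *Hao2*, *Zfp423* and *Osr2*, with r between 0.95 and 0.97 over 10 groups. For *Insl3*, whose few counts make the order uncertain, *Fam20a* (0.94) and *Zcchc12* (0.94) came first, and the 10th gene had r = 0.91.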

How the data were processed

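The deposited table holds raw counts per gene. The authors made these counts from 3′ reads with scPipe and Rsubread (GRCm39, GENCODE annotation, exons, strand used), collapsing reads by unique molecular identifier and adding sequencing lanes; the methods text describes the germ cell libraries and was taken to hold for the somatic ones. Tool versions and the annotation release are not given in the sources used here. Of 42422 identifiers, 40391, with 99.0% of the counts, matched GENCODE M39, which gave symbols and positions. The sample record of the first 20 libraries names 19; the library not named there, M2 of XY 24 h MEKi, was placed by the deposited barcode list, which gives its sex, inhibitor and time.

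Counts were filtered (filterByExpr by group), scaled by TMM (factors 0.9286 to 1.087) and fitted with 10 group means in edgeR 4.0.16 (R 4.3.3, quasi-likelihood F test, Benjamini-Hochberg adjustment over 15125 genes); SE is that of the log2 fold change. Interactions were contrasts of the same fit. Counts per library were 1380707 to 4836550. Libraries are pools of gonads, so p-values measure the spread between pools; no 2 libraries of a group agreed within sampling noise. The scripts were tested on simulated data. The members and gene lists were chosen with earlier results of these data known. Named genes were the 9 members, the called genes of each list with the largest and smallest changes (not all are printed, and 1 gene that the lists hold is not reported here), and the 10 genes most like *Cyp11a1* and *Insl3*. Alternatives were other scalings and filters, DESeq2 1.42.0, limma 3.58.1 (voom with treat), glmTreat, smaller fits, a replicate block, each library left out in turn and, chosen after seeing the data, leaving out 3 libraries with adrenal counts.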

Additional observations from a re-analysis of the deposited data

Results flagged for a closer look

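Single libraries stood apart from the other 3 of their group, by Dixon's test at the 95% level, in 9 of 87 sets of 4 values, where chance gives about 1 in 20. Of these, 3 were in XY 72 h DMSO replicate M5, which also held adrenal counts: *Star* at 50.9 CPM, *Hsd3b1* at 351 CPM and *Fdx1* at 62.3 CPM. *Cyp17a1* stood apart in XY 0 h replicate M6, at 90.4 CPM, and in XY 72 h MEKi replicate M4, at 109 CPM. *Hsd3b1* stood apart in XY 24 h MEKi replicate M4, at 389 CPM. For *Insl3* the value rests on 1 or 2 counts in the only library of its group with any: 0.952 CPM in XY 72 h DMSO replicate M6, 1.15 CPM in XY 72 h FGFRi replicate M2 and 0.474 CPM in XY 72 h MEKi replicate M2.

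Effects that differed between time points were tested as interactions, and 11 were called. The effect of MEKi was higher at 72 h than at 24 h by 1.23 on the log2 scale for *Cyp11a1*, 2.23 for *Cyp17a1* and 1.56 for *Hsd3b1*. The difference of XY over XX cells changed from 0 h to 24 h by 3.18 for *Cyp11a1*, 3.17 for *Lhcgr*, 1.19 for *Hsd3b1*, −0.95 for *Star*, −0.92 for *Fdxr* and −0.69 for *Scarb1*. From 24 h to 72 h it changed by −1.61 for *Cyp17a1* and −3.14 for *Hsd3b1*.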

How the results depend on the processing

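Of 2560 values of single genes recomputed, 0 turned direction where a call was made, 119 lost and 28 gained a call. The counts of genes called changed most under tests against a fold of 1.5. With edgeR's glmTreat they were 3 for XY against XX at 0 h, 2 at 72 h, 3 for XY 24 h against 0 h, 1 for XY 72 h against 24 h, 0 and 1 for MEKi at 24 h and 72 h, 0 for both times of FGFRi, for MEKi against FGFRi and for FGFRi 72 h against 24 h, 2 for the change of the sex difference from 0 h to 24 h and 1 for that from 24 h to 72 h. With voom and treat they were 2, 2, 3, 1, 0, 0, 0, 0, 0, 0, 2 and 1 in the same order, 1 for XX 24 h against 0 h and 0 for the time difference of the MEKi effect. FGFRi at 72 h called 0 with DESeq2, 3 without the filter on low counts, and 2 with the replicate block, with the libraries of the time points only, with the compared groups only or without the 3 libraries with adrenal counts. FGFRi 72 h against 24 h called 2 without the filter, with the block and in both smaller fits, and 0 with total counts, as did FGFRi at 24 h. The cause was not tested. Leaving out 1 library gave 5 to 5, 4 to 4 and 3 to 4 genes for XY against XX at 0, 24 and 72 h, 4 to 5 for XY and 3 to 4 for XX at 24 h against 0 h, 2 to 3 for XY 72 h against 24 h, 0 to 1 for MEKi at 24 h, 4 to 5 at 72 h, 0 to 1 and 0 to 3 for FGFRi, 0 to 1 for MEKi against FGFRi, 4 to 5 for MEKi 24 h against uncultured cells, 0 to 1 for FGFRi 72 h against 24 h, 2 to 4 for the time difference, and 5 to 6 and 1 to 2 for the changes of the sex difference. Libraries with the same replicate number did not deviate together (r from −0.156 to 0.116), and they were not treated as pairs. These correlations cannot show whether such libraries shared litters or a day of culture. With the number as a block, XY against XX at 72 h called 2 genes. The change from 24 h to 72 h called 1 with the block, and also without the 3 libraries with adrenal counts. Genes with a few counts per library, such as *Insl3*, are limited by depth.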
